A study of Mus musculus with 12 samples.

Results

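The 9 genes described here encode components and regulators of the complement cascade: C1qa, C1qb, C1ra and C1s1 of the first complex, the thioester proteins C4b and C3, and the inhibitors Serping1, Cd55 and Cd59a. They were chosen by name, and all 9 were found among the 56791 gene names of the deposited table. The table covers astrocytes of the hippocampus, sorted with an antibody to the surface antigen ACSA-2 from naive adult male mice. Every mouse carried floxed Tnfrsf1b (Tnfrsf1b fl/fl), the gene for the TNF receptor TNFR2. The group labelled Ctrl carried nothing else (A1, A2 and A8), and the group labelled cKO also carried GfapcreERT2, an inducible Cre recombinase under the Gfap promoter (A4, A9 and A10). The exact age, any tamoxifen schedule and whether an A number is 1 mouse are not given in the sources used here. Each A number had 2 libraries, S1 and S2, which were averaged to 1 unit, so n is 3 units per genotype. P-values therefore measure only the spread between these units, and Ctrl and cKO below mean the units so labelled.

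Complement is a chain of proteases and binding proteins. In the classical pathway, C1q recognises a target, the proteases C1r and C1s cleave C4 and C2, and the resulting enzyme cleaves C3, whose fragments coat the target and open the terminal pathway. In brain, microglia are the main source of C1q, astrocytes make C4 and, when reactive, C3, and tagging of synapses by C1q and C3 is known from development. Serping1 (C1 inhibitor) blocks C1r and C1s, Cd55 takes apart the enzymes that cleave C3, and Cd59a blocks the membrane attack complex.

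Values are FPKM, read fragments scaled by gene length and by library total, so levels can be compared between genes. Recovered depth was 17311872 to 35323322 reads per library, and a floor of 6 reads (3 pairs) was taken as the limit of counting. Reads have no molecular identifiers, so the floor covers counting error only. Astrocyte markers led the marker lists, with 10 of 10 above the floor in every unit and a summed level of 3257.5 to 4472 FPKM. The oligodendrocyte list summed to 896.6 to 1889 FPKM in Ctrl and 265 to 618 FPKM in cKO (exact permutation p = 0.1, two-sided, n = 3 each, the smallest this design allows). Tnfrsf1b, the ablated gene, was listed at 0 in 9 of 12 libraries and had 4 reads in A1 S1 (Ctrl). The libraries of A4, labelled cKO, had 10 and 22 reads, its highest. With so few reads in both genotypes it did not check the labels, and the source of the A4 reads was not tested. In these bulk values, fewer cells of a type and less RNA per cell cannot be told apart.

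C4b stood above every other complement gene of the 9. It averaged 17.6 FPKM over the 12 libraries, at the 88.8th percentile of the 17540 genes tested, and its lowest unit (9.74 FPKM) exceeded the highest unit of any other of the 9 (5.02 FPKM, Cd59a in A10). Cd59a (2.89 FPKM), C3 (2.66 FPKM), Cd55 (2.58 FPKM) and Serping1 (2.52 FPKM) followed and lay closer together than the spread between units, so their order was not resolved. S1 and S2 of a unit differed by at most 0.13 on the log2(FPKM + 1) scale for C4b and 0.53 for Cd59a, where the 6 units spanned 1.40 and 2.59. They sat at the 30.3rd to 35.2nd percentile of tested genes. C1qb (0.614 FPKM), C1qa (0.439 FPKM), C1ra (0.121 FPKM) and C1s1 (0.0265 FPKM) were below the mean of 1 FPKM needed for the main test. The recognition and protease genes of the classical pathway were thus the lowest of the 9, while its substrate C4b was the highest.

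**Figure D1:**
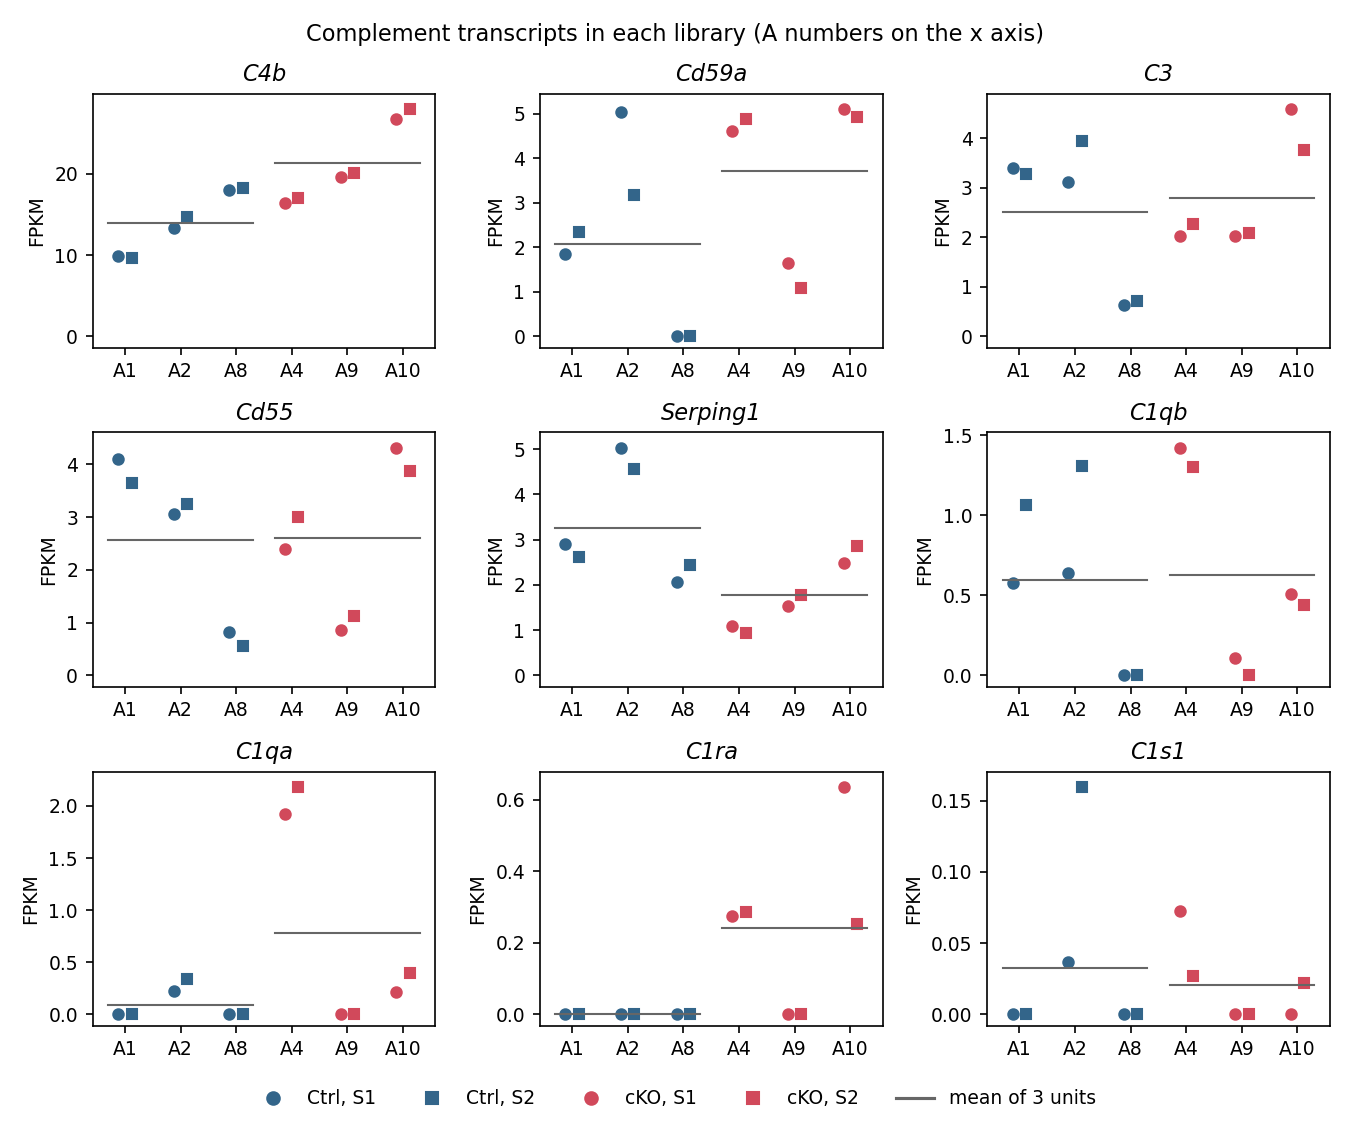
FPKM of the 9 complement genes in each of the 12 libraries, 1 panel per gene on its own scale, by A number (blue Ctrl, red cKO; circles S1, squares S2; grey lines are means of 3 units). C4b runs from 9.66 to 27.9 FPKM, Cd59a is 0 in both A8 libraries, and C1qa peaks in A4.

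C1qa and C1qb encode chains of C1q. C1qa (ENSMUSG00000036887, chromosome 4, start 136623228, end 136626114, minus strand, 3 exon entries) was listed at 0 in A1, A8 and A9, at 0.282 FPKM in A2, at 0.305 FPKM in A10 and at 2.05 FPKM in A4. Its highest value therefore came from 1 unit labelled cKO, with 44 reads in S1 and 80 in S2, and no other library passed 12 reads. C1qb (ENSMUSG00000036905, chromosome 4, start 136607440, end 136613498, minus strand, 3 exon entries) was 0.821, 0.973 and 0 FPKM in Ctrl A1, A2 and A8 and 1.36, 0.0527 and 0.477 FPKM in cKO A4, A9 and A10. The genotypes overlapped for both genes, and C1qb in A1 and A2 lay above its level in A9 and A10. C1qc, the remaining chain, which lies between them, was 0.307 and 0.691 FPKM in A1 and A2, 0.587 FPKM in A4 and 0 in A8, A9 and A10. In the fit without a filter on low values, the log2 fold change was 0.54 for C1qa (95% interval -0.51 to 1.59) and 0.02 for C1qb (-0.99 to 1.03), with limma adjusted p of 0.820 and 0.991. For C1qa it was 0.071 without A4 and 1.496 with a pseudocount of 0.1.

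The microglial marker list was set beside C1q, since microglia make it. Of its 14 genes, 10, 6 and 5 were above the floor in Ctrl A1, A2 and A8 and 13, 10 and 8 in cKO A4, A9 and A10. Its summed level was 30.7 to 43.7 FPKM in Ctrl and 41.0 to 59.0 FPKM in cKO, with the highest sum in A4. The mean of its log2(FPKM + 1) values did not overlap, at 0.875 to 0.935 in Ctrl and 1.04 to 1.66 in cKO (exact permutation p = 0.1, two-sided, n = 3 each, the smallest this design allows). A4 also had the deepest libraries of each S number. P2ry12, a microglial purine receptor, was 1.17, 2.08 and 4.08 FPKM in Ctrl A1, A2 and A8 and 9.22, 6.70 and 4.97 FPKM in cKO A4, A9 and A10, higher in every cKO unit, with a limma adjusted p of 0.433. Of the 5 tested microglial markers, P2ry12 alone had all cKO units above all Ctrl units. Laptm5, below the filter, had them too, at 0.0828 FPKM or more against at most 0.0640 FPKM. Outside A4 the list means lay close, at 0.934 and 0.935 in A8 and A1 against 1.038 and 1.045 in A10 and A9. How far this gap rests on P2ry12 was not tested. Sall1, which other brain cells also express, and P2ry12 were among the most abundant genes of the list. Tmem119, Trem2 and Fcer1g were at 0 in all Ctrl libraries. Tyrobp and Fcer1g, signalling adaptors of myeloid cells named after their values were seen, were 3.31 and 2.02 FPKM in A4 and at most 0.621 and 0.260 FPKM in any other unit. The receptor gene C3ar1, named likewise, was 0.791 FPKM in A4 and at most 0.00746 FPKM elsewhere, and the integrin chain Itgb2 was 0.560 FPKM in A4 and 0 elsewhere. Itgam, the partner of Itgb2, was instead highest in A2 (0.901 FPKM, against 0.628 FPKM in A4). Of the 14 microglial markers, 10 were highest in A4, 2 in A8, 1 in A1 and 1 in A9, with Trem2 at 0 in A4. A4 was thus the unit highest in C1qa and in most, not all, of these markers, and the part of the microglial genes in the C1q values was not tested. Perivascular macrophage genes summed to 0.107 FPKM in A4, below each Ctrl unit (0.327 to 0.870 FPKM), with Lyve1 and Pf4 at 0 in every library.

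**Figure D2:**
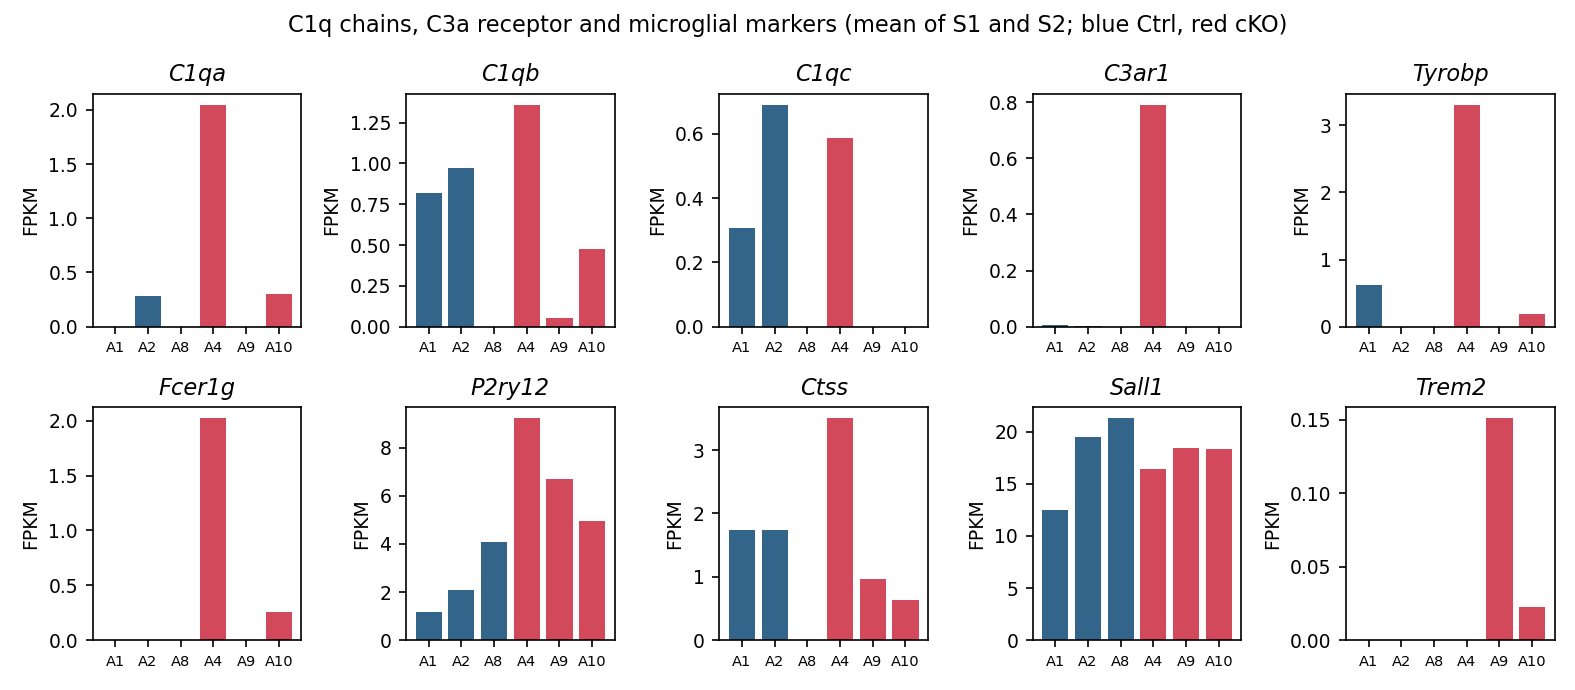
Mean FPKM of S1 and S2 in each unit (blue Ctrl, red cKO) for the C1q chains, the C3a receptor gene C3ar1 and 6 of the 14 microglial markers. A4 is highest for C1qa (2.05), C1qb (1.36), C3ar1 (0.791), Tyrobp (3.31), Fcer1g (2.02), P2ry12 (9.22) and Ctss (3.51), while C1qc is highest in A2 (0.691), Sall1 in A8 (21.3) and Trem2 in A9 (0.151).

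C1ra and C1s1 encode the proteases bound to C1q, and were the faintest of the 9. C1ra (ENSMUSG00000055172, chromosome 6, start 124489364, end 124500402, plus strand, 11 exon entries) was listed at 0 in all 6 Ctrl libraries and in both A9 libraries. It had 18 and 30 reads in A4 (0.274 and 0.285 FPKM) and 34 and 22 reads in A10 (0.634 and 0.254 FPKM). In these libraries 6 reads correspond to between 0.0570 and 0.116 FPKM, so A4 and A10 were above the floor and the other units were not. The fit without a filter gave a log2 fold change of 0.29 (95% interval -0.04 to 0.62, limma adjusted p = 0.820). Among the 15855 genes below the test's minimum but above 0, 356 (2.25%) had, like C1ra, at least 4 cKO libraries and no Ctrl library above the floor. C1s1 (ENSMUSG00000038521, chromosome 6, start 124507304, end 124519318, minus strand, 34 exon entries), near C1ra, had 14 reads in A2 S2, at most 5 in any other library and 0 in 7 libraries. Fibroblast genes, set beside these because such cells make C1r and C1s, summed to 20.6 FPKM in A10, 6.14 FPKM in A4 and 6.19 to 10.2 FPKM in Ctrl, and their part in the C1ra values was not tested.

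C4b encodes complement C4, which C1s cleaves to start the enzyme that acts on C3. C4b (ENSMUSG00000073418, chromosome 17, start 34947354, end 34962856, minus strand, 49 exon entries) was 9.74, 14.0 and 18.1 FPKM in Ctrl A1, A2 and A8, and 16.7, 19.9 and 27.3 FPKM in cKO A4, A9 and A10. The cKO units were the upper ones apart from A8, which lay above A4, so the groups overlapped. The Ctrl mean was 14.0 ± 4.17 FPKM and the cKO mean 21.3 ± 5.45 FPKM (SD, n = 3 each). The log2 fold change was 0.59 (SE 0.26, 95% interval -0.03 to 1.21), with an unadjusted p of 0.0592 and a limma adjusted p of 0.670. It was positive in 18 of 18 alternatives, between 0.37 without A1 and 0.78 without A8, and none brought the adjusted p under the threshold. The astrocyte markers summed to 3257.5, 3585 and 3996 FPKM in A1, A2 and A8 and to 4024, 4472 and 3895 FPKM in A4, A9 and A10. The unit lowest in C4b, A1, was thus also lowest in astrocyte markers. A10, the unit highest in C4b, had the lowest astrocyte sum of the cKO units, below that of A8. The mean log2(FPKM + 1) of the astrocyte markers did not overlap, at 7.586 to 7.875 in Ctrl and 7.933 to 8.05 in cKO (exact permutation p = 0.1, two-sided, n = 3 each, the smallest this design allows). The oligodendrocyte sum was lower in each cKO unit. The part of these cell types in the C4b values was not tested. Recovered reads of C4b were fractional in 5 of 12 libraries, as they were for its near-identical neighbour C4a (at most 0.382 FPKM in a unit), so some reads were divided between genes. How many C4b reads were shared was not measured, so the size of this uncertainty is not known.

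C3 encodes the central protein of the cascade and is also used as a mark of reactive astrocytes. C3 (ENSMUSG00000024164, chromosome 17, start 57510970, end 57535136, minus strand, 59 exon entries) was 3.34, 3.53 and 0.676 FPKM in Ctrl A1, A2 and A8 and 2.14, 2.06 and 4.18 FPKM in cKO A4, A9 and A10. A8 was lowest and A10 highest, and 2 cKO units lay below 2 Ctrl units. The means were 2.52 ± 1.60 FPKM and 2.79 ± 1.20 FPKM (SD, n = 3 each). The difference was 0.20 on the log2 scale, with an SE of 0.44, a 95% interval of -0.86 to 1.25 and a limma adjusted p of 0.967. The sign turned to -0.27 without A8, and to -0.05 without A10. C4b and C3 did not share a profile over the units (Pearson r = -0.06 over the 6 units, a description).

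Serping1 encodes C1 inhibitor and was the member of the tested 5 with the lower value in cKO. Serping1 (ENSMUSG00000023224, chromosome 2, start 84595731, end 84605788, minus strand, 17 exon entries) was 2.75, 4.79 and 2.25 FPKM in Ctrl A1, A2 and A8 and 1.01, 1.65 and 2.68 FPKM in cKO A4, A9 and A10. A10 lay inside the Ctrl range, and A4 and A9 lay below it. The means were 3.26 ± 1.35 FPKM and 1.78 ± 0.842 FPKM (SD, n = 3 each). This was -0.62 on the log2 scale, with an SE of 0.33, a 95% interval of -1.41 to 0.17 and a limma adjusted p of 0.756. Across the fits that left out 1 unit, it ran from -0.84 to -0.37. The mean log2(FPKM + 1) of 4 oligodendrocyte precursor markers ranked the units in the same order as Serping1. It was 3.439, 3.736 and 2.98 in A1, A2 and A8 and 2.27, 2.641 and 3.132 in A4, A9 and A10. The oligodendrocyte sum was also lower in each cKO unit. The part of these cell types in the Serping1 values was not tested.

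Cd55 encodes decay-accelerating factor, a membrane inhibitor of the C3-cleaving enzymes. Cd55 (ENSMUSG00000026399, chromosome 1, start 130366764, end 130390481, minus strand, 28 exon entries) was 3.87, 3.16 and 0.685 FPKM in Ctrl A1, A2 and A8 and 2.703, 1.0 and 4.09 FPKM in cKO A4, A9 and A10. A8 and A9 were low in opposite genotypes, and the group means were 2.57 ± 1.67 FPKM and 2.60 ± 1.55 FPKM (SD, n = 3 each). The log2 fold change was 0.05 (SE 0.51, 95% interval -1.17 to 1.26, limma adjusted p = 0.994), and the sign turned without A8 (-0.43), A4 (-0.02) or A10 (-0.26). Recovered reads were fractional in 6 of 12 libraries, so some were divided with another gene. The paralog Cd55b, at most 0.866 FPKM in a unit, had whole reads in all 7 libraries where it was above 0.

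Cd59a encodes the inhibitor of the membrane attack complex. Cd59a (ENSMUSG00000032679, chromosome 2, start 103926146, end 103945699, plus strand, 14 exon entries) was 2.10, 4.11 and 0 FPKM in Ctrl A1, A2 and A8 and 4.75, 1.37 and 5.02 FPKM in cKO A4, A9 and A10. It was listed at 0 in both A8 libraries, although these had 19598877 and 31499016 reads, and at 52 reads or more in every other library. The log2 fold change was 0.80 (SE 0.65, 95% interval -0.75 to 2.35, limma adjusted p = 0.869), and it was 0.14 without A8. With a pseudocount of 0.1 it was 1.77, since the listed 0 in A8 then weighs more. Of the tested 5, Cd59a had the widest spread between units of a genotype, a pooled SD of 1.003 on the log2 scale (91.4th percentile of tested genes, whose median was 0.317), and C4b the narrowest, 0.382.

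C3, Cd55 and Cd59a shared their extremes: all 3 had their lowest value in A8 and their highest in A10. Over the 6 units their log2(FPKM + 1) values had a Pearson r of 0.90 for C3 with Cd55, 0.85 for C3 with Cd59a and 0.84 for Cd55 with Cd59a, given as a description over few units that also differ in cell makeup. Serping1 and C4b did not follow them: their r with these 3 genes ran from -0.21 to 0.425. Ependymal markers summed to 45.3 FPKM in A8 and 34.3 FPKM in A9, against 87.3 to 185 FPKM in the other units, and endothelial markers to 6.24 FPKM in A8, 9.80 FPKM in A9 and 7.68 FPKM in A10 against 47.7 to 75.1 FPKM in A1, A2 and A4. A8 and A9, the units lowest in Cd55 and Cd59a, were thus also lowest in ependymal markers. A10, where the 3 genes were highest, was not highest in ependymal (121 FPKM) or endothelial markers. It was highest in choroid plexus markers (451 FPKM, at most 69.8 FPKM elsewhere), fibroblast markers (20.6 FPKM, at most 10.2 FPKM) and mural markers (94.4 FPKM, at most 84.1 FPKM). The part of any of these cells in the values was not tested.

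**Figure D3:**
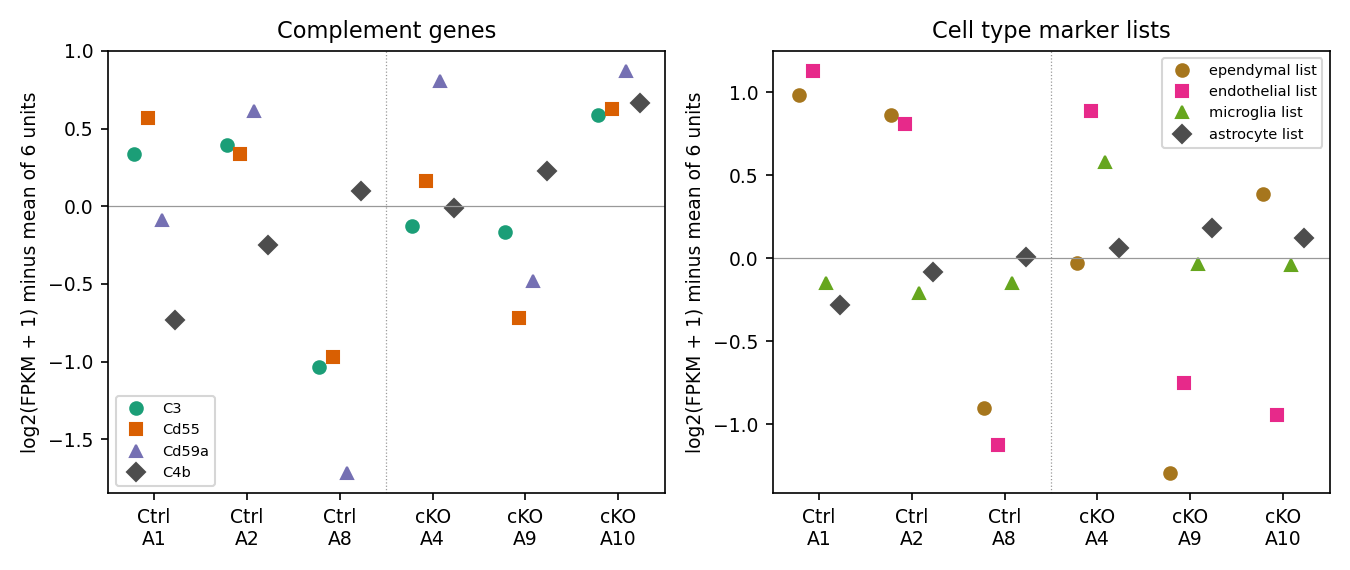
Values of log2(FPKM + 1) minus the mean of the 6 units, for 4 complement genes (left) and the mean of 4 marker lists (right), by unit, with Ctrl left and cKO right of the dotted line. C3, Cd55 and Cd59a are lowest in A8, as is the endothelial list, while C4b is lowest in A1 together with the astrocyte list. C4b is highest in A10 and the astrocyte list in A9.

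The sequences just upstream of the starts of these 3 genes are shown because the genes varied together. They are the 250 bases before each start in RefSeq on GRCm38.p6, for C3 chr17:57228137-57228386 (minus strand), for Cd55 chr1:130462745-130462994 (minus strand) and for Cd59a chr2:104095551-104095800 (plus strand). The deposited gene positions given above follow other coordinates (C3 at 57510970 to 57535136), so they cannot be used to place these windows. Capitals mark matches to a motif searched on both strands.
C3: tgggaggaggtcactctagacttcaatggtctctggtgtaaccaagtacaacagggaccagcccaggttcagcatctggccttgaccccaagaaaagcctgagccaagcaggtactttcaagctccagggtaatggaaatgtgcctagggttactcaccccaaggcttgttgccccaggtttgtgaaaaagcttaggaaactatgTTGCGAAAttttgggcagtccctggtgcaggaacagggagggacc
Cd55: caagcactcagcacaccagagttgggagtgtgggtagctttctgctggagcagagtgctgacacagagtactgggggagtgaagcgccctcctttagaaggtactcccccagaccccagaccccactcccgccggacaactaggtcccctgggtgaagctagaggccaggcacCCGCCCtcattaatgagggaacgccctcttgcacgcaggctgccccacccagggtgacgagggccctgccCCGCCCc
Cd59a: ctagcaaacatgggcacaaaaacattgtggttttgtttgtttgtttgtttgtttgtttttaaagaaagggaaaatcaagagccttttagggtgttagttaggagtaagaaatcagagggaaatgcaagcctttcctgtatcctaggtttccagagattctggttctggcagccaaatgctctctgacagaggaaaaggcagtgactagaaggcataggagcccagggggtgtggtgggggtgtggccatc
The motifs were TTGCNNAA (a C/EBP pattern), GGGCGG (the GC box), TATAAA, TTCNNNGAA (the STAT pattern) and the NF-kB consensus, and no matches overlapped. C3 held 1 match to TTGCNNAA, 45 bases before the start, a motif found in 9.56% of the 32851 windows of the same length in the table. Cd55 held 2 matches to GGGCGG, 77 and 7 bases before the start, a motif found in 32.7% of windows. Both lay on the strand opposite to the one printed, where they read CCGCCC in the printed sequence. The Cd55 window was 64.0% G and C where the median was 52.4%. Cd59a, with 44.8% G and C, held none of the 5 motifs. TATAAA (12.4% of windows), TTCNNNGAA (7.02%) and the NF-kB consensus (7.25%) had no match in the 3 windows, which says only that these letters are not there. The table gave a sequence for 6 of the 9 genes; C4b, Serping1 and C1qa were not among them.

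The genotype test asked whether complement transcripts differed when the recombinase was present. Of the 9 genes, 5 entered it (C3, C4b, Serping1, Cd55 and Cd59a), and 0 had a limma adjusted p under 0.05, where 0 of all 17540 tested genes (0%) did. At an unadjusted p under 0.05 the count was 0 of 5, against 7.69% of all tested genes (2.98% higher and 4.71% lower in cKO). The 4 genes below the filter had 0 as well in the fit without it, where 5.69% of genes did. When all 12 libraries entered with the A number as random term, 112 genes (0.639%) passed, and 0 of the 5 did. In 0 of the 5 did the 3 cKO units all lie above the 3 Ctrl units (5.73% of all tested genes) or all below them (7.26%). The fold change was positive for 4 and negative for 1, with a median of 0.20 against -0.01 over all tested genes. All 5 intervals reached past 1 on the log2 scale in at least 1 direction. In data simulated for this comparison over 16754 genes, 63.4% of the 186 changes of 2 on the log2 scale that passed the filter were recovered. Each gene was simulated with its own spread, so this share is an average over genes and not the recovery for the members. The pooled SD of the 5 members ran from 0.382 to 1.003, above the median of 0.317 over tested genes, and their largest difference was 0.80 (Cd59a).

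**Figure D4:**
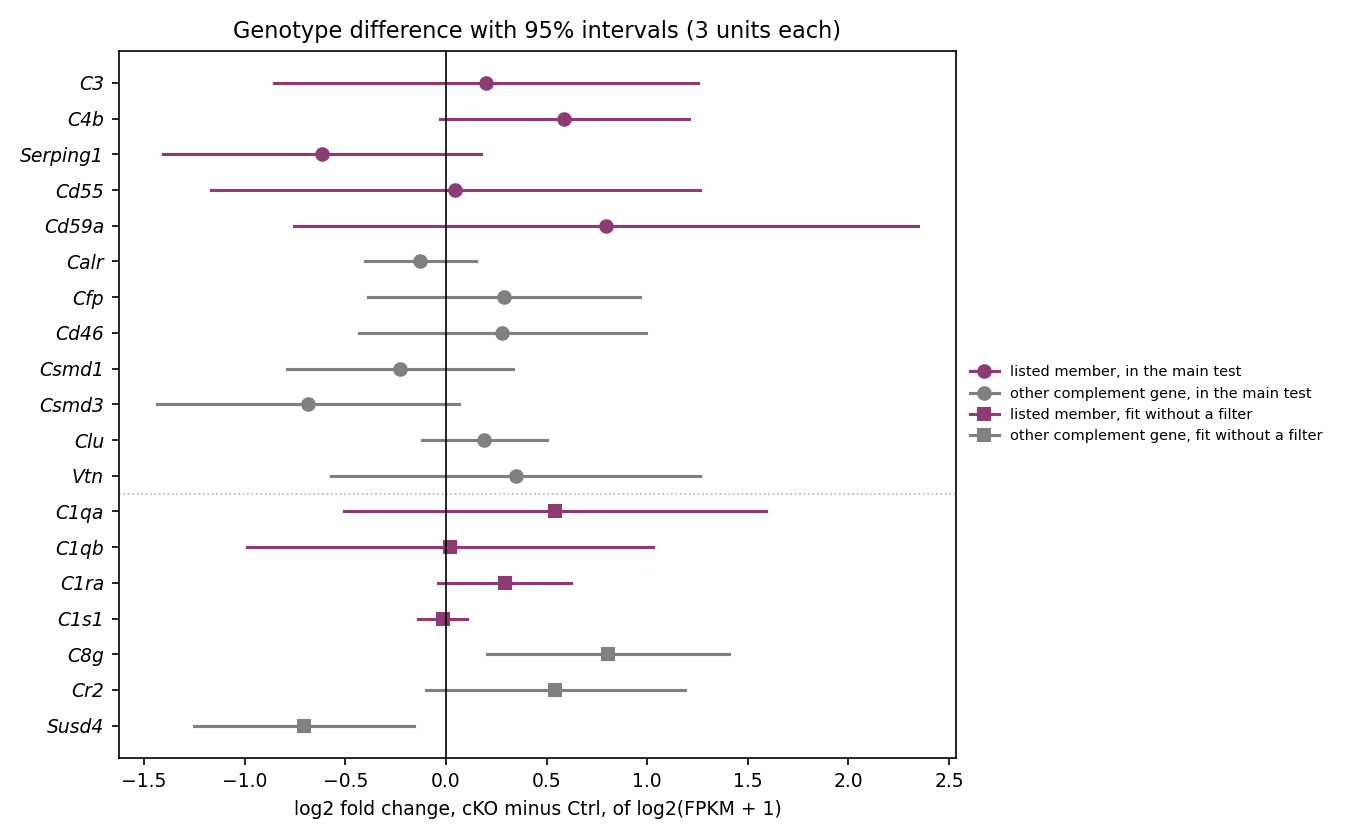
Log2 fold change, cKO minus Ctrl, of log2(FPKM + 1) with 95% limma intervals (n = 3 units each) for the named complement genes; those below the dotted line come from the fit without a filter on low values. All intervals of the tested genes include 0, and C4b (0.59) and Serping1 (-0.62) lie on opposite sides; in the fit without a filter, the unadjusted intervals of C8g and Susd4 do not include 0.

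The other complement genes were read from a list of 52. Of these, 14 passed the filter, 9 with a positive and 5 with a negative fold change (median 0.04), and 0 had a limma adjusted p or an unadjusted p under 0.05. In 0 of the 14 did the units of the genotypes lie apart. By role, the main test held 1 of 7 classical, 3 of 9 lectin, 1 of 3 alternative, 0 of 7 terminal, 0 of 9 receptor, 5 of 8 membrane regulator and 4 of 9 soluble regulator genes. Of the 14 above the filter, 9 were regulators, and 9 of the 52 genes were at 0 in every library.

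**Figure D5:**
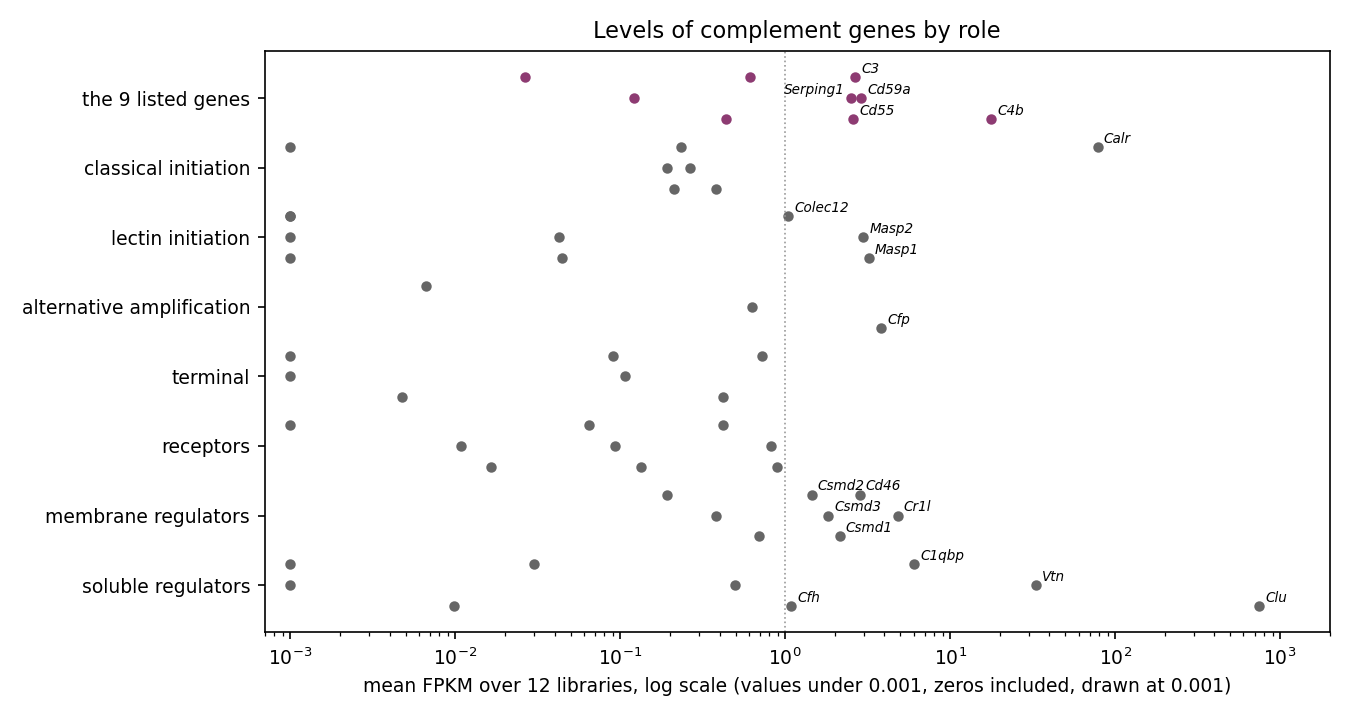
Mean FPKM over the 12 libraries on a log axis for the 9 listed genes (purple) and 52 other complement genes (grey) by role; the dotted line is the filter at 1 FPKM and genes right of it are named. Clu lies highest at 747 FPKM, and the terminal and receptor genes all lie left of the line.

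Clu, which encodes clusterin, a secreted inhibitor of the terminal complex and a lipid carrier, was the most abundant complement-related gene. Its Ctrl mean was 696.8 ± 49.5 FPKM and its cKO mean 798 ± 92.0 FPKM (SD, n = 3 each). The difference was 0.19 on the log2 scale, with an SE of 0.13 and a limma adjusted p of 0.835. Vtn, for vitronectin, another inhibitor of the terminal complex that mural cells also make, averaged 28.7 ± 10.4 FPKM and 37.6 ± 15.9 FPKM (limma adjusted p = 0.911). Its difference of 0.35 on the log2 scale was 0.055 without A8 and 0.062 without A10. Calr, for calreticulin, a chaperone that can bind C1q, averaged 81.8 ± 5.84 FPKM and 74.9 ± 6.66 FPKM (limma adjusted p = 0.881). For these abundant genes the groups overlapped, and the intervals of Clu (-0.12 to 0.50) and Calr (-0.40 to 0.15) were narrower than those of the 5 tested members.

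The remaining named genes had the smallest unadjusted p in each direction. Csmd3, which encodes a large membrane protein with complement control domains, was 2.80, 2.80 and 1.76 FPKM in Ctrl A1, A2 and A8 and 0.950, 0.683 and 1.92 FPKM in cKO A4, A9 and A10, which gave -0.69 on the log2 scale, an SE of 0.32 and a limma adjusted p of 0.693. As for Serping1, A10 was the cKO unit inside the Ctrl range. The part of oligodendrocyte lineage cells in the Csmd3 values was not tested. Csmd1 of the same family had a log2 fold change of -0.23 (limma adjusted p = 0.900). Cfp, for properdin, which stabilises the alternative pathway enzyme, had 0.29 (limma adjusted p = 0.896), or 0.03 without A2, and Cd46, a membrane cofactor for cleavage of C3b, had 0.28 (limma adjusted p = 0.906), with fractional reads in most libraries and so an uncertain level. None of these passed the threshold.

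Of the 38 other complement genes below the filter, 29 were above 0 and 25 above the floor in at least 1 library. With the 4 untested members, 33 were above 0, of which 7 were above the floor in cKO libraries alone and 4 in Ctrl libraries alone. Over all 15855 untested genes above 0 these shares were 18.3% and 12.7%, and 1.21% had at least 4 Ctrl libraries and no cKO library above the floor. In 3 of the 29, named here after their values were seen, all units of one genotype lay above those of the other, where 5.92% of the 15855 untested genes above 0 did. C8g, for the gamma chain of C8, a lipocalin, was 0.477, 0.293 and 0 FPKM in Ctrl A1, A2 and A8 and 1.30, 0.921 and 1.35 FPKM in cKO A4, A9 and A10. Cr2, for complement receptor 2, was 0.745, 0.248 and 0.637 FPKM in Ctrl and 1.39, 0.997 and 1.31 FPKM in cKO, in the same order of units. Susd4, which encodes an inhibitor of the classical and alternative enzymes, was 0.802, 1.52 and 0.985 FPKM in Ctrl A1, A2 and A8 and 0.191, 0.323 and 0.319 FPKM in cKO A4, A9 and A10. In the fit without a filter, their log2 fold changes were 0.80, 0.54 and -0.71, with limma adjusted p of 0.699, 0.820 and 0.721, so none passed. The unadjusted limma values of C8g and Susd4 in that fit were 0.0172 and 0.0197.

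The genes whose values over the 6 units were most like each tested member are given as a description, since with 6 units many genes reach a high r by their number alone. For C3 these were Sephs2 (Pearson r = 0.998), Sugp2 (0.996) and Gm15819 (0.995), and 108 genes had an r over 0.95. For Cd55 they included Fam161a (0.997) and Cp (0.996), among 195 genes over 0.95, and for Cd59a they were Trip6 (0.996), Rnaseh2a (0.994) and B4galt1 (0.993), among 65. For Serping1 they were Wdr54 (0.996), Zbtb16 (0.991) and Pld1 (0.989), among 39. C4b had the fewest, 35, led by Gm55094 (0.985), Gm29683 (0.984) and Fuz (0.983). None of the genes named here is on the complement lists.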

How the data were processed

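The authors deposited FPKM values of 56941 genes in 12 libraries, with each gene's exonic length in bases; the submitters' processing notes name FastQC, STAR, featureCounts, DESeq2, mm10 and GRCm38, without versions. Only 2.87% of the 52000 genes found in GENCODE M21 (GRCm38) shared both ends with it, so the deposited positions do not follow that annotation. They are given as deposited, with their build not settled. Rows sharing a symbol were summed. The SMART-Seq V4 kit and paired reads were used, per the labels' protocols. Reads were recovered from the steps of low FPKM values, taking the most frequent step as 2 reads; 83.8% to 87.8% of values under 1000 reads came out whole (within 0.01 of a read).

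Genes with a mean of at least 1 FPKM were tested on log2(FPKM + 1), averaged over S1 and S2, with limma 3.58.1 in R 4.3.3 (eBayes with trend, two-sided, Benjamini-Hochberg over all 17540 genes, threshold 0.05); this scale understates changes of low genes. Tables used Python 3.11.15. Marker lists were compared by exact permutation over 20 arrangements. The fit was tested on simulated data. Named genes were the 9, other complement genes with a mean of at least 10 FPKM, and the 3 with the smallest unadjusted p in each direction. The members, lists and motifs were chosen with earlier results of these data known. Some genes that these rules select are not reported here.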

Additional observations from a re-analysis of the deposited data

Results flagged for a closer look

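In genes below the minimum of the genotype test, 7 complement genes had reads above the floor of 6 in libraries labelled cKO and in no Ctrl library (18.3% of all untested genes above 0 did). They are given because the test left these genes out, and they come from 33 complement genes, so the count is near that share. C1ra was above it in 4 cKO libraries, those of A4 and A10. C3ar1 and Itgb2 were above it in 2 libraries each, both of A4, and Cfi in 2 libraries, both of A10. C5ar1 and C5ar2 were above it in 1 library each, of A4, and Fcna in 1 library, of A10, so 4 of the 7 rest on A4 alone. The reverse held for 4 of the 33, C1s1, C8a, C8b and Vsig4, against 12.7% of all untested genes above 0. In the fit without a filter on low values, C1ra had a limma adjusted p of 0.820, and 0 of 33395 genes passed, with 1899 at an unadjusted p under 0.05.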

How the results depend on the processing

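The counts of called genes among the 9 and among the other complement genes were 0 in 18 of 18 alternatives, with smallest limma adjusted p of 0.264 and 0.304. Over all genes the count of 0 became 112 in the fit of all 12 libraries with A number as random term, and 80 with the replicate block (S number) added; S1 and S2 share an A number, so the block pairs no Ctrl with a cKO unit. The count ran from 0 to 1 (1 without A1) when 1 A number was left out. The split of genes at an unadjusted p under 0.05 was 523 higher and 826 lower, 761 and 625 with upper quartile scaling, and 364 and 1000 after rescaling to a sum of 1000000. Fold changes that reversed were C1qb, at -0.011 after rescaling and -0.17 in S2 alone, C1s1, at 0.016 in S1 alone, and Cd55, at -0.055 in S1 alone. With 1 A number left out, the log2 fold change ran from -0.29 to 0.30 for C1qb, -0.038 to 0.029 for C1s1, -0.27 to 0.45 for C3, -0.43 to 0.42 for Cd55 and -0.016 to 0.50 for Cd46. So did the differences in Tnfrsf1b (-0.0092 to 0.0613 FPKM), the fibroblast list (-0.19 to 0.35) and the choroid plexus list (-1.17 to 0.53). The cause of these changes was not tested. Depth limits C1qa, C1qb, C1ra and C1s1, whose highest library held 80, 50, 34 and 14 reads.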
